A study of Mus musculus with 6 samples.

Results

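The genes described here mark spiral ganglion neurons, the neurons that carry sound information from the hair cells of the cochlea to the brainstem, and the presynaptic machinery of neurons. A named set of 37 genes was looked up by symbol, and all 37 were found among the 30462 genes of the deposited table. Cochlear RNA from mice at postnatal day 7 had been sequenced in 6 libraries, 3 labelled NEU4 KO (KO 2, KO 4 and KO 5) and 3 labelled WT (WT 3, WT 4 and WT 5). The Neu4 product is a sialidase, which cleaves sialic acids off sugar chains. The labels give no strain, mutant allele or treatment, and they do not say whether a library comes from 1 animal or from pooled animals, so the p-values reflect only how these 6 samples vary.

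Most spiral ganglion neurons are type I cells with a myelinated axon that contacts an inner hair cell, and a minority are type II cells that reach the outer hair cells. Both kinds are glutamatergic: vesicular glutamate transporters fill their synaptic vesicles, and SNARE proteins, synaptotagmins and complexins release them onto brainstem neurons. In the weeks around hearing onset these neurons thicken their axons with neurofilaments, assemble sodium channels at nodes and the spike initiation zone, and give up growth-associated proteins.

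Values are FPKM, fragments per kilobase of exon scaled to library depth, as computed by the authors, so levels can be compared between genes and between libraries. The libraries held 15170973 to 17192293 mapped fragments, as implied by the values. Neu4 hardly differed between the groups and was very low, with 0.0797 ± 0.0255 FPKM in KO and 0.0779 ± 0.0242 FPKM in WT (SD, n = 3 each; exact two-sided permutation p = 0.8, the smallest possible being 0.1), so its RNA did not check the labels. By the Y-linked gene Ddx3y, KO 2, WT 3 and WT 4 were male and KO 4, KO 5 and WT 5 female. A gene was tested where 3 or more libraries had an FPKM of 1 or above, with limma on log2(FPKM + 1) over all 14072 such genes. A log2 fold change (KO minus WT) on that scale understates the change of low genes.

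No neuronal gene passed the threshold, an adjusted p of 0.05, but most leaned upward in the libraries labelled KO. Of the 37 genes, 32 were tested, and 0 were called (limma), where 0.334% of all tested genes were called. The smallest adjusted p was 0.0999, that of Slc17a6. At an unadjusted p under 0.05, 9 were higher and 1 was lower, against 10.6% and 6.99% of all tested genes. These 10 were 5 without KO 4, 6 without KO 2 or WT 5, and 4 with sex as a covariate. With voom on fragments recovered from the FPKM, 2 genes (Slc17a6 and Vamp1) of 31 were called, where 2.72% of all 13796 genes in that fit were called.

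By direction, 26 of the 32 had a positive and 6 a negative log2 fold change, where 56.9% of all tested genes had a positive one. The median was 0.15, against 0.02 for all tested genes. The KO values lay wholly above the WT values for 10 of the 32 and wholly below for 0, where the shares over all tested genes were 15.2% and 9.54%. The genes were chosen with earlier results of these data known, so these counts are a description.

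2 libraries stood apart in neuronal RNA. KO 4 was the highest of the 6 libraries for 24 of the 32 genes, and WT 3 was the lowest for 25. In WT libraries, WT 4 was the highest for 23. The median deviation of the 32 genes from their own means, on the log2 scale, was 0.02, 0.24 and 0.01 in KO 2, KO 4 and KO 5, and -0.28, 0.01 and -0.02 in WT 3, WT 4 and WT 5. Over all tested genes this deviation stayed between -0.01 and 0.03. The medians of the other 4 libraries, 2 of each group, lay between -0.02 and 0.02. Without WT 3, 21 genes were higher and 11 lower (median 0.10), and without KO 4, 24 were higher and 8 lower (median 0.13). Without WT 4 the median was 0.24. In bulk tissue, fewer neurons in a sample and less RNA per neuron cannot be told apart.

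The transcription factors of the set varied little between the groups. Gata3, a zinc finger factor needed for spiral ganglion development that other cochlear cells also make, was at 7.75, 8.53 and 7.04 FPKM in KO 2, KO 4 and KO 5, against 7.42, 7.35 and 7.06 in WT 3, WT 4 and WT 5. Isl1, a LIM homeodomain factor of sensory neurons, was at 4.97, 4.87 and 6.06 FPKM in KO and 5.17, 4.95 and 4.47 in WT. Both overlapped between the groups, with log2 fold changes of 0.08 (SE 0.070, limma adjusted p = 0.585) and 0.10 (SE 0.089, adjusted p = 0.596). WT 3, the library lowest in most neuronal genes, was not lowest in either. Pou4f1, a POU factor of sensory neurons, was near the limit for testing at 0.758 to 1.33 FPKM in KO and 0.648 to 1.18 in WT. Neurod1, a bHLH factor of newly formed ganglion neurons, was all but absent, with 0 to 1 fragment per KO library and 2 to 4 per WT library, and was not tested.

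The 3 neuronal RNA-binding proteins were all somewhat higher in KO. Elavl4 (HuD), which stabilises neuronal mRNAs, had 2.57, 2.61 and 1.99 FPKM in KO 2, KO 4 and KO 5, against 1.53, 1.99 and 1.92 in WT 3, WT 4 and WT 5. Its groups touched without overlapping, KO 5 lying just above WT 4 (log2 0.27, SE 0.11, limma adjusted p = 0.268). Elavl3 (HuC), its close relative, was at 2.45, 2.70 and 2.05 FPKM in KO and 1.64, 2.12 and 2.57 in WT, with WT 5 above 2 of the KO libraries. Rbfox3, the splicing factor known as the antigen NeuN, had a mean of 2.23 ± 0.275 FPKM in KO and 1.88 ± 0.215 in WT (SD, n = 3 each; log2 0.17).

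The cytoskeletal genes varied by type, with 8 of 11 higher and 3 lower in KO. The heavy neurofilament gene Nefh (ENSMUSG00000020396, chr11:4938754-4948064, minus strand), whose product spaces the filaments of large axons and comes late in maturation, had 30.0, 31.6 and 26.0 FPKM in KO 2, KO 4 and KO 5, against 17.4, 24.7 and 22.1 in WT 3, WT 4 and WT 5. The groups did not overlap, and the log2 fold change of 0.44 (SE 0.13, limma adjusted p = 0.163) equalled that of Slc17a6 on this scale, whereas the ratio of the mean FPKM, KO over WT, was 1.36 for Nefh and 1.59 for Slc17a6. Nefm, the medium neurofilament gene, had 44.7, 50.9 and 41.8 FPKM in KO and 31.5, 42.9 and 39.8 in WT, with 1 WT library above the lowest KO one. Nefl, the light chain on which the filaments assemble, overlapped more, at 31.2, 37.1 and 30.3 FPKM in KO against 21.8, 33.0 and 32.0 in WT (log2 0.19). Nefm and Nefl share 1108 bp of exon on opposite strands, 19.2% of Nefm and 32.8% of Nefl. It is not known here whether the counting used strand, so how reads of the shared stretch were counted cannot be told. Ina, the neurofilament partner alpha-internexin, had 10.7, 12.6 and 10.5 FPKM in KO and 7.25, 9.87 and 10.1 in WT, without overlap (log2 0.29, SE 0.12, adjusted p = 0.283). Nt5c2 overlaps 14.1% of its exons on the other strand.

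Tubulin and microtubule genes overlapped between the groups, apart from Map2. Tubb3, the neuronal beta-tubulin, had 35.8, 47.2 and 34.9 FPKM in KO 2, KO 4 and KO 5, against 27.3, 43.8 and 38.0 in WT 3, WT 4 and WT 5. KO 2 and KO 5 lay below 2 of the WT libraries, and the log2 fold change of 0.12 (SE 0.18, adjusted p = 0.764, limma) turned to -0.07 without WT 3. Stmn2 and Stmn3, which destabilise microtubules, had means of 9.18 ± 1.12 and 34.6 ± 6.21 FPKM in KO, and 8.41 ± 1.68 and 28.3 ± 6.47 FPKM in WT (SD, n = 3 each). The microtubule-associated genes Mapt (log2 -0.07) and Map2 (log2 0.08) differed little, although the narrow Map2 values, 1.75 to 1.85 FPKM in KO and 1.56 to 1.72 in WT, did not overlap.

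Gap43 and Prph had lower means in KO. Gap43 (ENSMUSG00000047261, chr16:42248442-42340651, minus strand), the growth cone protein of extending axons, had 11.5, 18.1 and 15.8 FPKM in KO 2, KO 4 and KO 5, against 17.3, 23.9 and 19.9 in WT 3, WT 4 and WT 5. KO 4 lay above WT 3, so the groups overlapped, and the log2 fold change was -0.41 (SE 0.17, limma adjusted p = 0.270). It was the 1 gene of the set lower at an unadjusted p under 0.05. Prph encodes peripherin, an intermediate filament protein kept in type II neurons and in autonomic neurons. It had 3.90, 16.6 and 6.27 FPKM in KO, against 9.97, 15.3 and 9.08 in WT. KO 4 was the highest library of all and KO 2 the lowest (log2 -0.51, SE 0.44, adjusted p = 0.580).

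**Figure D1:**
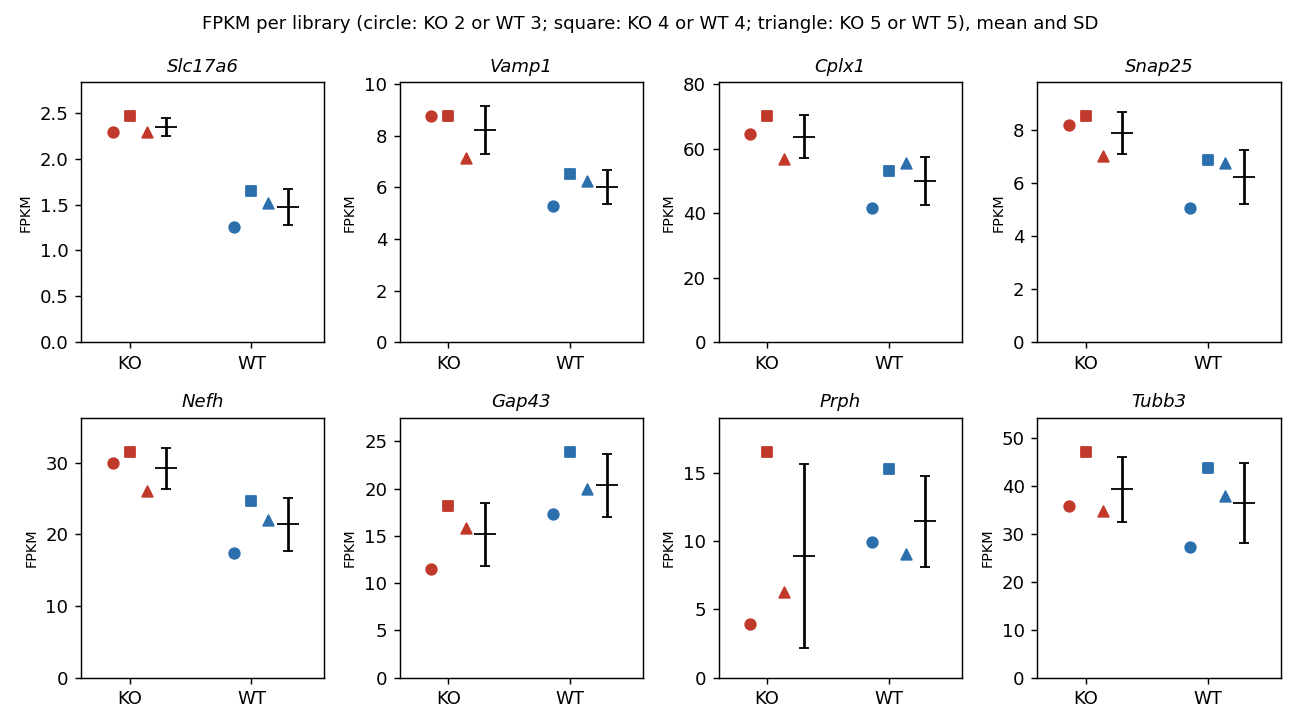
FPKM of 8 neuronal genes in each library, with KO (red) left of WT (blue) and the mean with SD (n = 3) as black bars. Slc17a6, Vamp1, Cplx1, Snap25 and Nefh do not overlap between the groups, whereas Gap43, Prph and Tubb3 do.

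Of the 10 genes grouped as synaptic release machinery and transmitter loading, Sncg among them, 9 were higher in KO, with a median log2 fold change of 0.32. For 5 of them the KO values lay wholly above the WT values, against 15.2% of all tested genes. The median of the 10 was 0.18 without WT 3 and 0.16 with the replicate number as a block. That block leaves KO 2 and WT 3 out of the contrast, since their numbers occur in 1 group only. Slc17a6 (ENSMUSG00000030500, chr7:51622006-51671119 on GRCm38, plus strand), which encodes the vesicular glutamate transporter VGLUT2, had 2.29, 2.46 and 2.30 FPKM in KO 2, KO 4 and KO 5, against 1.26, 1.65 and 1.52 in WT 3, WT 4 and WT 5. The KO libraries were alike (2.35 ± 0.0980 against 1.47 ± 0.200, SD, n = 3 each) and all lay well above the highest WT library. The values rest on 206, 225 and 188 fragments in KO and on 112, 153 and 131 in WT. The log2 fold change was 0.44 (SE 0.089, limma adjusted p = 0.0999; 0.0265 to 0.353 over the alternatives). On recovered fragments, without the pseudocount that damps low genes, voom gave 0.68.

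Slc17a7, which encodes the related transporter VGLUT1, was the more abundant of the pair, and its groups overlapped. It had 4.92, 5.31 and 4.85 FPKM in KO and 3.82, 4.69 and 5.81 in WT, with WT 5 the highest library (log2 0.08, SE 0.12, adjusted p = 0.782, limma). The ratio of Slc17a7 to Slc17a6 was 2.15, 2.16 and 2.11 in KO 2, KO 4 and KO 5, against 3.04, 2.85 and 3.83 in WT 3, WT 4 and WT 5. The KO ratios were the closest of any measured pair, and all lay below the WT ratios.

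Vamp1 and Vamp2 encode synaptobrevins, the vesicle SNARE proteins. Vamp1 (ENSMUSG00000030337, chr6:125215551-125245964, plus strand) had 8.76, 8.75 and 7.14 FPKM in KO 2, KO 4 and KO 5, against 5.28, 6.52 and 6.26 in WT 3, WT 4 and WT 5 (log2 0.39, SE 0.099, limma adjusted p = 0.133; 0.0374 to 0.370 over the alternatives). Each KO library lay above each WT library. Vamp2 was much more abundant and its groups overlapped, at 44.4, 47.3 and 43.6 FPKM in KO and 42.0, 47.1 and 51.9 in WT (log2 -0.05, SE 0.077). Vamp2 is also made outside neurons, and WT 3, lowest for most of the set, was lowest for it too by a small margin only over KO 5.

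The sequences upstream of these genes are given for the gene with the smallest p (Slc17a6, which has 2 annotated starts), for Vamp1 and, as a contrast, for Prph, whose mean was lower in KO. They are the 250 bases before the RefSeq start on GRCm38.p6, 5′ to 3′ on the strand of the gene. The stretch for the second Slc17a6 start lies within the gene, downstream of the first start, and the last 30 bases of the Vamp1 stretch lie in the annotated first exon of Vamp1. RefSeq promoters matched 27 of the 37 genes (34 starts). Capitals mark any of 5 motifs, searched on both strands. The TATA box, at which transcription of many genes is placed, was read as TATAAA. The E-box, bound by bHLH factors such as Neurod1, was read in a first form as CAGCTG and, for the form known from proneural and neuronal bHLH factors, as CATCTG. The motif of GATA factors, to which Gata3 belongs, was read as AGATAA. The cAMP response element of activity-dependent genes was read as TGACGTCA.
Slc17a6, first start, chr7:51621580-51621829, plus strand: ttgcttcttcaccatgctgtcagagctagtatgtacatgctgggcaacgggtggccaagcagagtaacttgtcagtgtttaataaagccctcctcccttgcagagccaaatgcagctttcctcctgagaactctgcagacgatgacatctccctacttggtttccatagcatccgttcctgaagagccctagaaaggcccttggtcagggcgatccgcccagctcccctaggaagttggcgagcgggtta
Slc17a6, second start, chr7:51624387-51624636, plus strand: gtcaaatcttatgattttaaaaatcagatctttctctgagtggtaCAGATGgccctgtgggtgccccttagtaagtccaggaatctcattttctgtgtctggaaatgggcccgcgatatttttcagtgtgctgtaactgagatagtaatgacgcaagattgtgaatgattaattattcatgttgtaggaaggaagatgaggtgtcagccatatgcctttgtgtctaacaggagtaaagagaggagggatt
Vamp1, chr6:125215331-125215580, plus strand: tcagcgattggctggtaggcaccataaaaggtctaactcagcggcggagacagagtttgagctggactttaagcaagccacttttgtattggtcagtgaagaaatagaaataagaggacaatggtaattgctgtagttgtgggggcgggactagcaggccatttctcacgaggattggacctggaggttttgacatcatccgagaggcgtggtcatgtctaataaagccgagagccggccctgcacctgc
Prph, chr15:99054924-99055173, plus strand: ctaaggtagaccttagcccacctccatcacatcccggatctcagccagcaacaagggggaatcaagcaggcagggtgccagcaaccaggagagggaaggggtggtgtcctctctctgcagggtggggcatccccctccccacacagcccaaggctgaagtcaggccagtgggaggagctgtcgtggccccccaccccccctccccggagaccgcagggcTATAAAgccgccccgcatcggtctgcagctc
The second Slc17a6 start held an E-box, read as CAGATG on the printed strand, and the first start and Vamp1 held none of the 5 motifs. Prph had a TATA box that began 31 bases before the start. Over the set, CAGCTG was found upstream of 23.5% of the 34 starts against 13.0% of all 32851 starts, and CATCTG upstream of 17.6% against 14.4%. TATAAA was found upstream of 5.88% against 12.4%, AGATAA upstream of 5.88% against 9.99%, and TGACGTCA upstream of 2.94% against 1.55%. A match describes these letters and is not a site.

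Among the other vesicle genes, Cplx1 was the most abundant of the whole set. It encodes complexin 1, the clamp of the SNARE complex, and had 64.5, 70.0 and 56.7 FPKM in KO 2, KO 4 and KO 5, against 41.6, 53.1 and 55.4 in WT 3, WT 4 and WT 5 (log2 0.35, SE 0.12, limma adjusted p = 0.207). KO 5 lay only just above WT 5. Snap25, a SNARE protein of the plasma membrane, had 8.19, 8.53 and 7.02 FPKM in KO and 5.06, 6.87 and 6.77 in WT, with the same narrow gap (log2 0.31, SE 0.12, adjusted p = 0.242). Syp, the vesicle protein synaptophysin, had 5.97, 6.42 and 5.72 FPKM in KO and 3.29, 5.53 and 5.17 in WT, with WT 3 well below the other 5 libraries. An antisense gene, Gm14703, overlaps 16.8% of the Syp exons. Of the calcium sensors, Syt1 had 1.94, 2.42 and 2.25 FPKM in KO and 1.52, 1.96 and 1.58 in WT, overlapping by KO 2 and WT 4. Syt2, the fast sensor typical of auditory neurons, had 4.73, 5.02 and 3.83 FPKM in KO and 2.51, 3.94 and 3.87 in WT. Sncg, a synuclein enriched in sensory neurons, was at 27.0 ± 5.57 FPKM in KO and 26.4 ± 4.50 in WT (SD, n = 3 each; log2 0.03) and followed Tubb3 in putting KO 4 and WT 4 highest.

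Of the 3 sodium channel genes, all low, 1 was tested. Scn8a, the Nav1.6 channel of nodes of Ranvier, had 1.19, 1.59 and 1.43 FPKM in KO 2, KO 4 and KO 5, against 0.853, 1.16 and 0.940 in WT 3, WT 4 and WT 5 (log2 0.27, SE 0.11, limma adjusted p = 0.260). All 3 KO libraries but only 1 WT library reached the minimum of 1 FPKM. The KO libraries alone thus met the filter, so Scn8a was tested mainly through the group where it is high. The same limit holds where it is counted as higher at an unadjusted p under 0.05 (limma) or as without overlap. Scn1a, the Nav1.1 channel, had 0.991, 1.08 and 0.899 FPKM in KO, against 0.581, 0.767 and 0.763 in WT. It missed the minimum, so it was not tested, although its groups did not overlap. Scn9a, the Nav1.7 channel of sensory neurons, was at 0.244 to 0.453 FPKM in KO and 0.209 to 0.346 in WT, and was likewise not tested. Its groups overlapped.

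The AMPA receptor subunits did not separate the groups. Gria3 had 3.02, 2.68 and 3.62 FPKM in KO 2, KO 4 and KO 5, against 2.75, 2.59 and 3.01 in WT 3, WT 4 and WT 5. Gria4 had 2.55, 3.09 and 2.85 FPKM in KO and 2.57, 2.20 and 2.26 in WT, with KO 2 just under WT 3 (log2 0.20, SE 0.085, limma adjusted p = 0.290). Gria2, the subunit that makes the receptor impermeable to calcium, was far lower than Gria4, at 0.235, 0.277 and 0.288 FPKM in KO and 0.238, 0.352 and 0.354 in WT, and was not tested. Gria3 and Gria4 did not have KO 4 highest and WT 3 lowest together, unlike most neuronal genes.

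The remaining genes of the set were level or lower in KO. Uchl1, the ubiquitin hydrolase known as PGP9.5, had 22.7, 31.0 and 22.6 FPKM in KO 2, KO 4 and KO 5, against 21.3, 30.4 and 27.5 in WT 3, WT 4 and WT 5 (log2 -0.05). Its antisense gene Uchl1os overlaps 18.1% of its exons. Thy1, a surface glycoprotein of neurons and fibroblasts, had 15.0, 16.0 and 15.4 FPKM in KO and 14.6, 17.9 and 17.5 in WT (log2 -0.10, SE 0.077). Th, which encodes tyrosine hydroxylase, the rate-limiting enzyme of catecholamine synthesis, was low, at 0.178, 0.325 and 0.167 FPKM in KO and 0.410, 0.443 and 0.318 in WT. These values rest on 6 to 13 fragments per KO library and 12 to 18 per WT library, and Th was not tested.

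Because the libraries differed in neuronal RNA as a whole, each gene was also set against the other neuronal genes of its library, by subtracting the library's median deviation over the 32 genes. This is a description and carries no test. On this scale 15 genes were relatively higher and 17 relatively lower in KO, a balance that the subtraction sets. The groups did not overlap for 6 and 4 of them, where the shares over all 14072 tested genes on the same scale were 0.54% and 20.3%. The subtraction centres the 32 genes but shifts most other genes down in KO. These shares therefore follow largely from it and give no expectation for the 6 and 4. Genes also made outside neurons, such as Vamp2, Thy1 and Gata3, are placed lower by the subtraction where neuronal RNA is high, as in KO 4. The 6 above were Nefh (0.26), Slc17a6 (0.26), Vamp1 (0.21), Cplx1 (0.16), Snap25 (0.12) and Ina (0.11), given as KO minus WT on the log2 scale. The 4 below were Gap43 (-0.60), Thy1 (-0.28), Mapt (-0.26) and Vamp2 (-0.24). Tubb3 (-0.06) and Stmn2 (-0.06), both pan-neuronal, lay near 0. Prph (-0.69) was the furthest from 0, but overlapped.

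**Figure D2:**
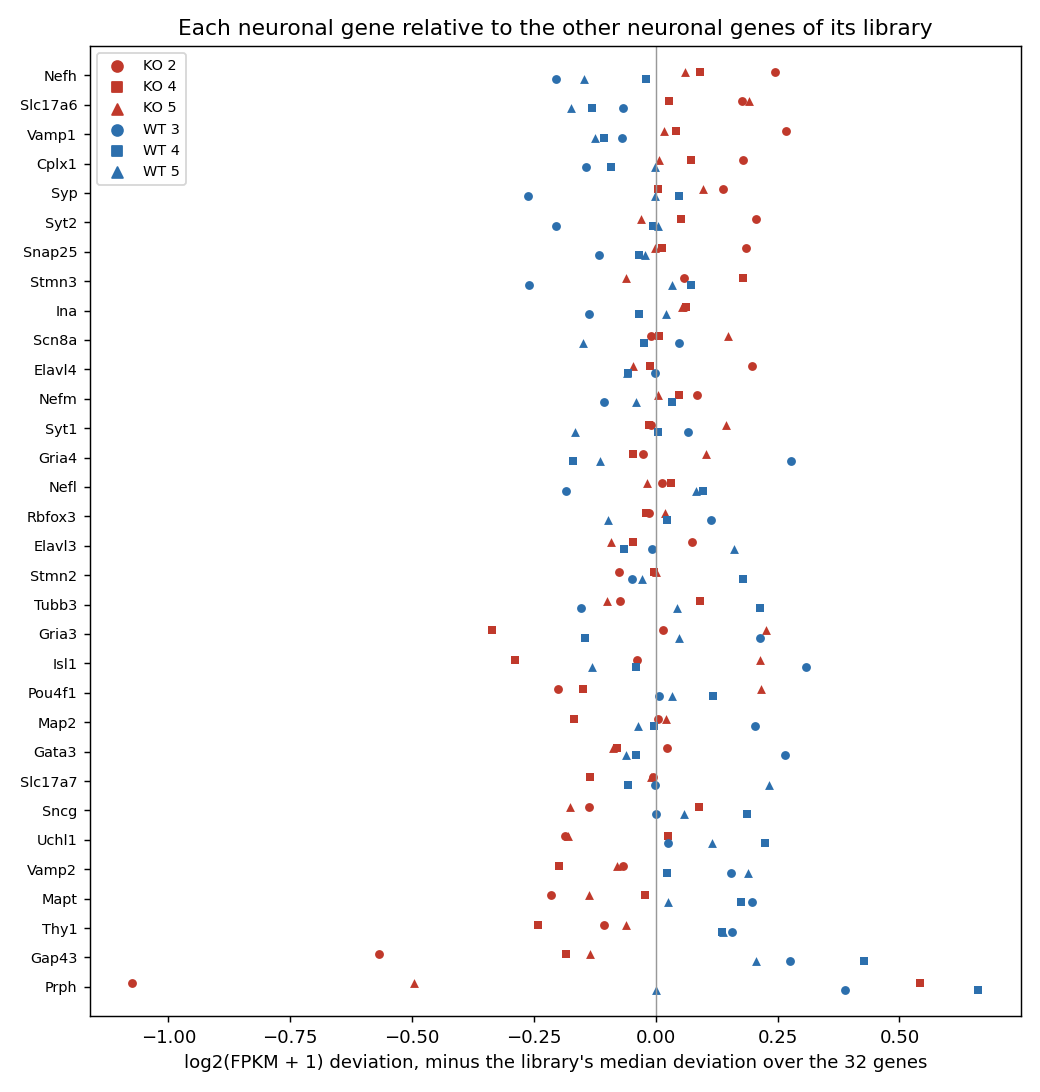
Rows are the 32 tested neuronal genes, ordered by the difference between the groups. Points are libraries (red, KO; blue, WT) on a log2(FPKM + 1) scale after subtracting the gene's mean and the library's median over the 32 genes. Nefh, Slc17a6 and Vamp1 at the top and Gap43, Thy1 and Mapt near the foot separate the groups.

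Ratios were taken between 6 pairs of related genes. Where 1 gene of a pair is also made outside neurons, as Vamp2 is, the ratio also depends on how much neuronal RNA a library holds. Apart from the transporter pair above (log2 difference of the ratio -0.59), Vamp1 over Vamp2 was 0.197, 0.185 and 0.164 in KO 2, KO 4 and KO 5, against 0.126, 0.138 and 0.121 in WT 3, WT 4 and WT 5 (log2 difference 0.50). Nefh over Nefl was 0.962, 0.851 and 0.860 in KO and 0.800, 0.748 and 0.690 in WT (0.26). For these 3 pairs the groups did not overlap, which gives p = 0.1 in an exact two-sided permutation test of 3 against 3, the smallest it allows, and 0.2 adjusted over the 6 pairs. Syt2 over Syt1 averaged 2.07 ± 0.364 in KO and 2.04 ± 0.402 in WT (SD, n = 3 each; exact permutation p = 0.8). Gria2 over Gria4 was 0.0923, 0.0897 and 0.101 in KO and 0.0926, 0.159 and 0.157 in WT, with WT 3 among the KO values (exact permutation p = 0.2, adjusted 0.3). Prph over Tubb3 was 0.109, 0.351 and 0.180 in KO, against 0.365, 0.349 and 0.239 in WT (exact permutation p = 0.3, adjusted 0.36).

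**Figure D3:**
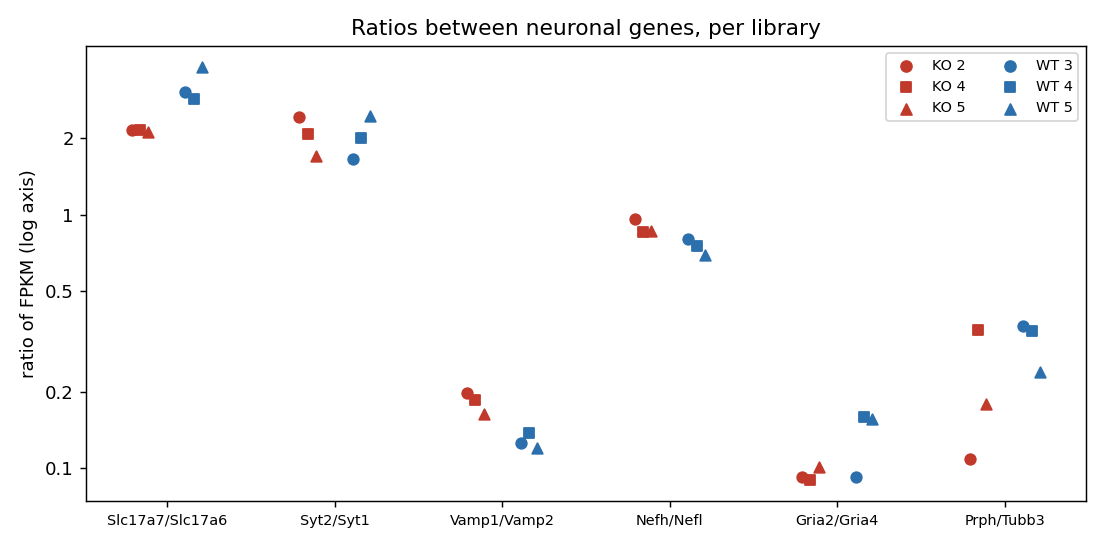
Ratios of FPKM (log axis) for 6 pairs of neuronal genes, 1 point per library, with KO (red) left of WT (blue). The groups are apart for Slc17a7/Slc17a6, Vamp1/Vamp2 and Nefh/Nefl, where KO lies below WT for the first pair and above it for the other pairs.

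Other genes of the same cells leaned the same way. Of 31 further presynaptic genes 22 were tested, of which 18 were higher and 4 lower (median log2 0.10), where 56.9% of all tested genes were higher. Limma called 0, against 0.334% of all tested genes. At an unadjusted p under 0.05 (limma), 5 were higher and 1 was lower, against 10.6% and 6.99%. Voom called 2, against 2.72% of all genes in that fit. Synj1, the vesicle recycling phosphatase synaptojanin 1, had 7.40, 7.29 and 7.03 FPKM in KO 2, KO 4 and KO 5, against 5.54, 5.85 and 5.64 in WT 3, WT 4 and WT 5 (log2 0.30, SE 0.051, limma adjusted p = 0.0735). Its values were tight in each group, and neither KO 4 nor WT 3 stood out. The SNAP attachment gene Napb (log2 0.32), the vesicle glycoprotein gene Sv2b (0.36) and the synaptogyrin gene Syngr1 (0.27) came next, with adjusted p of 0.175, 0.180 and 0.209. Sv2b reached the minimum of 1 FPKM in 3 KO libraries and 0 WT libraries, so it was tested only through the group where it is high.

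Of 46 further spiral ganglion neuron genes 32 were tested, of which 25 were higher and 7 lower (median log2 0.15). Limma called 1, against 0.334% of all tested genes. This was Calb2, which encodes the calcium buffer calretinin of a subset of type I neurons and of hair cells, at 18.5, 21.6 and 18.9 FPKM in KO and 13.1, 11.5 and 13.3 in WT (log2 0.60, SE 0.076, limma adjusted p = 0.0425). Its call was lost without KO 2, KO 4, WT 3, WT 4 or WT 5. The axonal adhesion gene Cntn1 (log2 0.40), the granin gene Chgb (0.29) and the calcium sensor gene Vsnl1 (0.44) followed, with adjusted p of 0.0996, 0.116 and 0.121.

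Markers of other cells also differed between the libraries, and their part in the neuronal values was not tested. Of 12 Schwann cell markers 3 were higher and 9 lower in KO, with a median log2 fold change of -0.13 and 0 called. Their median deviation from their own means, on the log2 scale, was -0.01, -0.02 and -0.15 in KO 2, KO 4 and KO 5, against 0.35, 0.17 and -0.29 in WT 3, WT 4 and WT 5. It was highest in WT 3, the library lowest in neuronal genes. S100b, a calcium-binding protein gene of glia, was at 80.0 ± 1.84 FPKM in KO and 65.1 ± 2.59 in WT (SD, n = 3 each; log2 0.29, limma adjusted p = 0.0583). All 9 tested hair cell markers of 12 listed were higher in KO, with 0 called, where 56.9% of all tested genes were higher. Their median log2 fold change was 0.17, against 0.15 for the 32 neuronal genes. For 3 of the 9 the KO values lay wholly above the WT values, against 15.2% of all tested genes. The 12 listed summed to 77.2 to 84.3 FPKM in KO and 61.1 to 73.1 in WT. Pvalb, which neurons also make, was at 28.1 to 36.1 FPKM in KO and 21.9 to 33.7 in WT. Ush1c was at 14.4 ± 1.71 FPKM in KO and 10.2 ± 0.623 in WT (SD, n = 3 each).

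Skeletal muscle markers (10 of 11 tested lower in KO, Acta1 and Mb among them) summed to 36.7 to 276 FPKM in KO and 153 to 674 in WT, and KO 4, the library highest in neuronal genes, had the lowest sum. Middle ear epithelium markers, led by Bpifa1 (3 of 7 tested, all 3 lower), summed to 15.4 to 104 FPKM in KO and 399 to 752 in WT. Bone and cartilage markers, led by Col1a1 and with Dmp1 of smallest p, were higher for 5 and lower for 4, and summed to 9456 to 11443 FPKM in KO and 9990.1 to 11251 in WT.

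Most markers of other neurons were low, with Npy and Isl2 as exceptions. Of 9 autonomic neuron markers 8 stayed under 1 FPKM in all libraries, with Dbh, the noradrenaline-forming enzyme, at most 0.0675 FPKM, and the list summed to 7.02 to 9.27 FPKM in KO and 4.85 to 7.69 in WT, mostly from Npy, at 2.98 to 7.22 FPKM over the 6 libraries. Of 10 brain markers 5 stayed under 1 FPKM, among them the GABA neuron genes Gad1, Gad2 and Slc32a1, and the list, led by Gfap, summed to 12.5 to 13.4 FPKM in KO and 9.04 to 13.8 in WT. WT 3, the library lowest in neuronal genes, had the lowest sum. The median deviation of the 5 tested brain markers was 0.02, -0.05 and 0.14 in KO 2, KO 4 and KO 5. It was -0.29, 0.11 and -0.07 in WT 3, WT 4 and WT 5. Of 5 cholinergic and motor neuron markers 3 were found, of which 2 stayed under 1 FPKM. These were the cholinergic genes Chat and Slc5a7, at most 0.0140 and 0.175 FPKM. The list, led by Isl2, summed to 1.90 to 2.68 FPKM in KO and 2.08 to 2.20 in WT. Isl2 itself was at 1.71 to 2.56 FPKM, about the level of Slc17a6. The part of these cells in the neuronal values was not tested.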

How the data were processed

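RNA of mouse cochlea at postnatal day 7 was measured in 3 libraries labelled NEU4 KO and 3 labelled WT. The authors deposited 1 table of FPKM per gene, on GRCm38 per the submitters' processing notes; aligner, counter and strand setting: not given in the sources used here. The values are whole multiples of what 1 fragment is worth for 98.3% of entries, taken with GENCODE exon lengths, which gave the fragment numbers quoted. Genes for which 3 or more libraries had an FPKM of 1 or above were tested with limma 3.58.1 in R 4.3.3 (lmFit, eBayes with trend) on log2(FPKM + 1), KO minus WT, with Benjamini-Hochberg adjustment over all 14072 genes and a threshold of 0.05. The fit was first tested on simulated data. Pair ratios and Neu4 were compared by exact permutation over the 6 libraries. Tables and figures were made with Python 3.11.15, pandas 2.3.3 and matplotlib 3.10.9.

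The neuronal genes, roles, pairs and marker lists were chosen with earlier results of these data known. Values per library are given for neuronal genes with an unadjusted p under 0.05, for the 2 genes of highest mean FPKM in each role and for the genes of the pairs, and others were added to account for the whole set. From the further presynaptic and ganglion lists the 4 genes of lowest p are named, and from each marker list the gene of highest mean and the gene of lowest p; the remaining marker genes named were chosen after their values were seen. 1 marker gene that this rule names is not reported here. The alternatives were pseudocounts of 0.1 and 0.01, an FPKM minimum of 5 or none, no trend, median-ratio and quantile scaling, protein-coding genes alone, sex as a covariate, the replicate number as a block, voom on recovered fragments, and leaving out each library.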

Additional observations from a re-analysis of the deposited data

How the results depend on the processing

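Among single neuronal genes 387 of 398 alternative values kept their direction and side of the threshold. Among summary results 196 of 228 stayed alike. For a count this meant a similar size, for a median a shift smaller than the spread between libraries, and otherwise the same sign. Of the rest, 20 were weaker, 6 stronger, 3 moved and 3 reversed. Over all genes 47 were called, against 19 without trend, 103 with an FPKM minimum of 5, 19 with no filter, 15 with a pseudocount of 0.01, 22 with the replicate block, 24 with sex as a covariate and 375 with voom. The replicate block also leaves KO 2 and WT 3 out of the contrast, since their numbers occur in 1 group only. Leaving out 1 library gave 12 genes called (without WT 3 or WT 4) to 105 (without KO 5). Voom called 2 neuronal genes, where limma called 0 of 32. It called 2 of the further presynaptic genes, where limma called 0, and 3 of the further ganglion genes, where limma called 1. That last count was 0 without trend, with no filter, with a pseudocount of 0.01, with the replicate block and with sex as a covariate, and 0 to 1 over the libraries left out. Of the 6 channels and receptors 3 were tested, among them Scn8a, which met the filter through the KO libraries alone. The median log2 fold change of these 3, 0.20, was 0.27 with a pseudocount of 0.01, 0.29 with the replicate block and 0.27 with voom. The untested Scn1a, Scn9a and Gria2 had log2 fold changes of 0.22, 0.07 and -0.05 with no filter. The median log2 fold change of the surface and enzyme genes ran from -0.19 to 0.0050 over the libraries left out, turning positive without WT 4. The log2 difference of the Syt2/Syt1 ratio ran from -0.12 to 0.17 over the libraries left out, and was -0.10 without KO 2 and -0.12 without WT 3.

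Single genes turned direction as follows: Slc17a7 to -0.035 with the replicate block and -0.048 without WT 3; Tubb3 to -0.0082 with the replicate block, -0.014 without KO 4 and -0.066 without WT 3; Uchl1 to 0.021 without KO 2, 0.024 without KO 5 and 0.055 without WT 4 (lowest -0.20, without KO 4); and Vamp2 to 0.019 without WT 5 (lowest -0.13, without WT 3). With voom, Slc17a6 (0.68) and Vamp1 (0.45) passed the threshold. The cause of these changes was not tested. Replicate numbers 4 and 5 occur in both groups, and the labels do not say what they mark. Deviations from the group means correlated at 0.141 between KO 4 and WT 4 and at 0.150 between KO 5 and WT 5. The remaining pairs of a KO and a WT library ran lower, from -0.125 to 0.110. Whether the numbers mark a shared batch was not tested. With the block 23 neuronal genes were higher and 9 lower, from KO 4, KO 5, WT 4 and WT 5 alone. At 3 libraries a group, low genes such as Pou4f1, with 50 to 95 fragments per library, are measured less precisely than abundant ones.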
